A study of Mus musculus with 6 samples.

Results

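Toll-like receptors were examined in RNA sequencing libraries of mouse articular cartilage, as the 10 rows of the deposited gene table named Tlr1, Tlr2, Tlr3, Tlr4, Tlr5, Tlr6, Tlr7, Tlr8, Tlr9 and Tlr13, among 34709 genes in all. The libraries came from knockout (KO) mice and wildtype mice, with 3 libraries labelled for each group. Per the text of the study, the mice of both groups were male littermates aged 18 months. The KO line was purchased and no restriction of the KO to a cell type is stated. The comparison asks how expression in aged articular cartilage differed in KO mice. All 10 receptors had a mean of at least 0.5 FPKM (fragments per kilobase of transcript, adjusted for library size) and were tested.

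Toll-like receptors are membrane proteins of innate immunity that recognise microbial molecules and products of damaged tissue. Tlr1, Tlr2, Tlr4, Tlr5 and Tlr6 act at the cell surface, whereas Tlr3, Tlr7, Tlr8, Tlr9 and Tlr13 bind nucleic acids in endosomes. Except for Tlr3, they signal through the adaptor Myd88 to NF-κB, and in the joint, Tlr2 and Tlr4 are known for responding to fragments of the cartilage matrix. Neutrophils, monocytes, macrophages and B cells carry more of these receptors than most other cells.

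The libraries held 52268311 to 63331135 counts each. KO replicates 2 and 3 were much more alike than any other pair of libraries, with a noise ratio (the median squared difference over genes, where 1 is Poisson sampling) of 5.77 against 23.8 to 85.0 in the other 14 pairs, and were therefore averaged and counted as 1 sample. The main comparison had 2 KO samples and 3 wildtype samples, and the alternatives differed in this where stated. The values of KO replicate 1 and of KO replicates 2 and 3 are given apart because these libraries often differed. The cartilage label was only partly met by the markers. The lubricin gene Prg4 was at 402 to 1034 FPKM and the matrix protein gene Comp at 41.0 to 109 FPKM. The collagen gene Col2a1 was at 12.4 to 21.3 FPKM and the cartilage proteoglycan gene Acan at 13.2 to 22.8 FPKM. However, Col9a1 was under 0.5 FPKM in all 6 libraries and Matn3 was listed at 0 in 3 of them. The neutrophil gene S100a9 was at 11637 to 27817 FPKM, the globin gene Hbb-bs at 9546 to 45387 FPKM and the osteoclast gene Ctsk at 219 to 731 FPKM. In such bulk samples, a lower number of cells of a type and less RNA per cell cannot be told apart.

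The level of each receptor was described first. Averaged over the 6 libraries, Tlr13 was the most abundant at 16.6 FPKM, followed by Tlr2 (14.8), Tlr7 (6.16), Tlr8 (5.09), Tlr1 (5.02), Tlr4 (4.89), Tlr6 (3.67), Tlr9 (2.27), Tlr5 (1.01) and Tlr3 (0.727). Tlr13 and Tlr2 stood apart from the rest, since the lowest Tlr2 value exceeded the highest Tlr7 value. No other neighbours in this order had ranges that were apart. Tlr4 exceeded Tlr6, Tlr6 exceeded Tlr9 and Tlr9 exceeded Tlr5 in each of the 6 libraries, but Tlr1 exceeded Tlr4 in 2 of the 6 and Tlr5 exceeded Tlr3 in 3. Of the remaining mouse receptors, Tlr12 was at 0.821 to 1.27 FPKM and Tlr11 at 0.0846 to 0.266 FPKM, which was too low for a test.

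**Figure D1:**
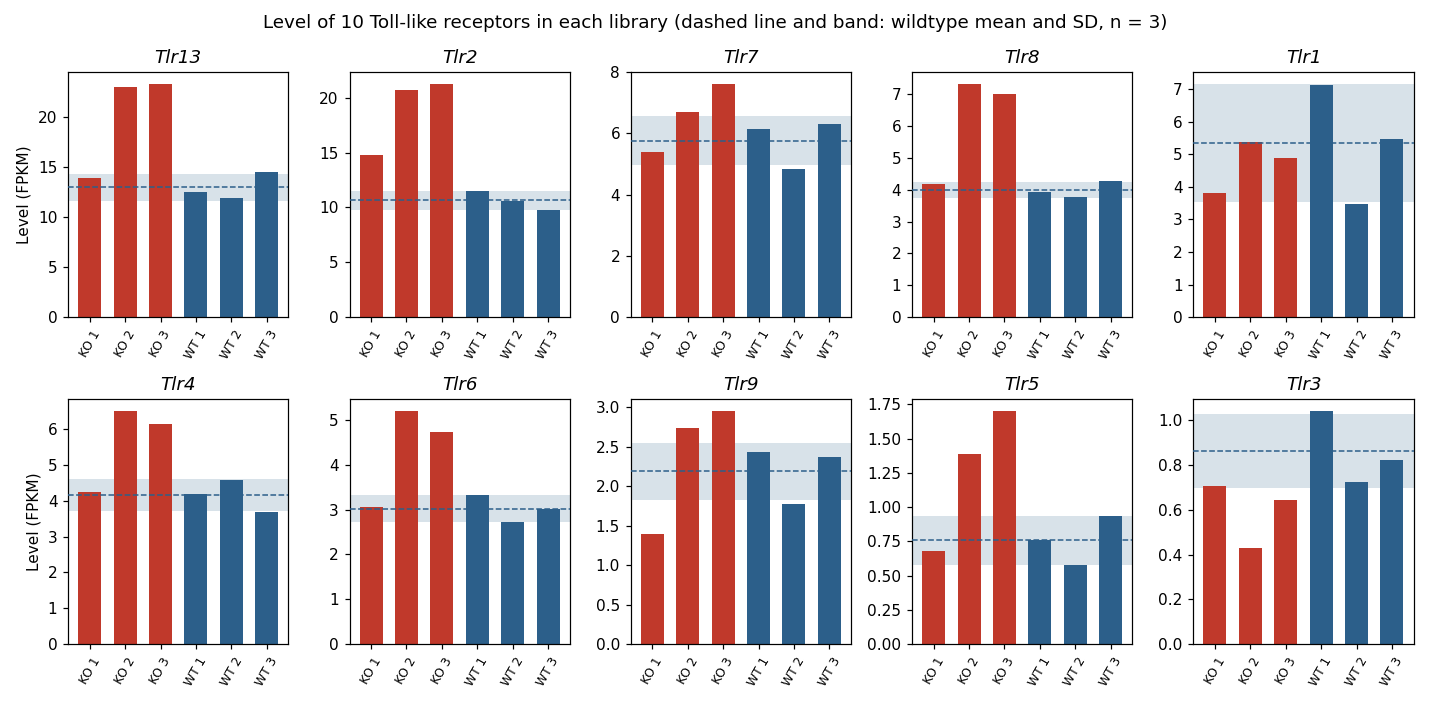
Level in FPKM (vertical axes, each from 0) of the 10 receptors in the 3 KO libraries (red) and the 3 wildtype libraries (blue, WT), ordered by mean level; the dashed line and band are the wildtype mean and SD (n = 3). KO replicates 2 and 3 exceed the other 4 libraries in 8 of the 10 panels, all but Tlr1 and Tlr3, whereas KO replicate 1 exceeds the wildtype libraries only for Tlr2.

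In the comparison of KO with wildtype, 7 of the 10 receptors were higher and 3 were lower. None passed an adjusted p-value of 0.05 (edgeR quasi-likelihood test, Benjamini-Hochberg over 15373 genes), and 0% of all genes passed. At an unadjusted p-value under 0.05, Tlr2 and Tlr13 were higher and 0 receptors were lower. Among all genes tested, 13.7% had such a p-value, 7.63% higher and 6.07% lower. The median log2 difference (KO minus wildtype) of the 10 receptors was 0.39, and that of all genes tested was -0.02. This median rested on KO replicates 2 and 3. It was 0.62 without KO replicate 1 and 0.04 with KO replicate 1 as the only KO sample. In KO replicates 2 and 3 together, 8 receptors lay above the other 4 libraries, a pattern shown by 27.8% of all genes tested, and Tlr3 lay below them, as did 19.5% of all genes.

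The number of receptors with an unadjusted p-value under 0.05 was read against all genes in each alternative. With the 6 libraries as labelled, edgeR gave 5 receptors (Tlr2, Tlr4, Tlr6, Tlr8 and Tlr13, all higher) and 22.2% of all genes. This fit and the replicate block count the very similar KO replicates 2 and 3 as separate samples, so their p-values may be too small. The replicate block gave 4 receptors and 18.3% of genes, and without KO replicate 1 there were 6 receptors and 20.7% of genes. DESeq2, median-of-ratios scaling and no filter on low values gave 3 receptors each, and 16.1%, 13.7% and 8.06% of genes. The 2 limma fits gave 1 receptor each, and 11.7% and 11.9% of genes. KO replicate 1 as the only KO sample gave 1 receptor and 9.82% of genes, and without wildtype replicate 1 or 2 there was 1 receptor, and 9.35% and 12.2% of genes. Without wildtype replicate 3 there were 2 receptors and 9% of genes, and a minimum of 5 FPKM gave 2 of the 5 receptors left and 17% of genes. Without KO replicate 2 there were 2 receptors and without KO replicate 3 there were 3, each beside 13.7% of genes.

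The receptors of bacterial lipoproteins are formed by Tlr2 in pairs with Tlr1 or Tlr6. Tlr2 (ENSMUSG00000027995, chromosome 3, 83836272 to 83841767, minus strand, GRCm38) was at 14.7, 20.7 and 21.3 FPKM in the KO libraries, always listed as replicates 1, 2 and 3, against 11.5, 10.6 and 9.77 FPKM in the wildtype libraries. Every KO library thus lay above every wildtype library, and Tlr2 was the sole receptor with this pattern. Over the 5 samples, 12.5% of all genes tested had KO samples above all wildtype samples. Tlr2 averaged 17.9 ± 4.41 FPKM (SD, n = 2) over the KO samples, against 10.6 ± 0.879 FPKM (SD, n = 3) over wildtype, for a log2 difference of 0.76 (SE 0.159, unadjusted p-value 0.00195 and edgeR adjusted p-value 0.166). The threshold was passed in 3 of 15 alternatives, with the 6 libraries as labelled (0.82, edgeR adjusted p-value 0.0358, passed by 3.71% of all genes), by DESeq2 (0.77, adjusted p-value 0.00300, passed by 5.72% of genes) and without KO replicate 1 (0.94, edgeR adjusted p-value 0.0434, passed by 2.29% of genes, with the merged KO sample assumed to vary like wildtype). The fit of the 6 libraries counts KO replicates 2 and 3 as separate samples, so its p-value may be too small. Over all alternatives the adjusted p-value of Tlr2 ranged from 0.00300 (DESeq2) to 0.487 (edgeR without wildtype replicate 3).

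Tlr6 (ENSMUSG00000051498, chromosome 5, 64952031 to 64960048), which recognises diacylated lipoproteins with Tlr2, was at 3.06, 5.20 and 4.72 FPKM in the KO libraries and at 3.33, 2.72 and 3.01 FPKM in the wildtype libraries. KO replicate 1 was inside the wildtype range and KO replicates 2 and 3 were above it. The log2 difference was 0.42 (SE 0.215, edgeR adjusted p-value 0.470), and it was 0.68 without KO replicate 1. Tlr1 (ENSMUSG00000044827, chromosome 5, 64924679 to 64933561), the partner for triacylated lipoproteins, lies 18469 bases from Tlr6. It was at 3.81, 5.37 and 4.89 FPKM in the KO libraries and at 7.13, 3.49 and 5.46 FPKM in the wildtype libraries, so that all KO values fell inside the wildtype range. The log2 difference of Tlr1 was -0.24 (SE 0.279, edgeR adjusted p-value 0.802).

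The balance of these partners was then described within each library, by ratios chosen after the levels were seen and not tested. The ratio of Tlr1 to Tlr6 levels in FPKM was 1.25, 1.03 and 1.03 in the KO libraries (replicates 1, 2 and 3), against 2.14, 1.28 and 1.81 in wildtype. The KO ratios were below the wildtype ratios, although KO replicate 1 and wildtype replicate 2 were close. The ratio of Tlr2 to Tlr1 was 3.87, 3.85 and 4.36 in KO and 1.62, 3.04 and 1.79 in wildtype. Such separation was not particular to Tlr1. The ratio of Tlr2 to Tlr6 was 4.82, 3.98 and 4.51 in KO and 3.47, 3.91 and 3.24 in wildtype. That of Tlr13 to Tlr9, which are not partners, was 9.99, 8.43 and 7.92 in KO and 5.17, 6.72 and 6.13 in wildtype. Tlr1 and Tlr6 are near-identical over part of their length. In the GENCODE M21 transcripts, 13.6% of the 50-base words of Tlr1 also occurred in Tlr6, and 4.30% of its 150-base words, so reads from these stretches may have been assigned to either gene and both values are uncertain. No other pair of the 10 receptors shared a word of 50 bases.

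Tlr4 (ENSMUSG00000039005, chromosome 4, 66827584 to 66930284), the receptor of lipopolysaccharide, was at 4.24, 6.50 and 6.14 FPKM in the KO libraries and at 4.18, 4.58 and 3.70 FPKM in the wildtype libraries. Only KO replicates 2 and 3 exceeded the wildtype range. The log2 difference of Tlr4 was 0.35 (SE 0.193, edgeR adjusted p-value 0.496). Tlr5 (ENSMUSG00000079164, chromosome 1, 182954788 to 182976044), the receptor of flagellin, was low throughout, at 0.682, 1.39 and 1.70 FPKM in KO and 0.758, 0.576 and 0.939 FPKM in wildtype. Its merged KO sample was at 2.04 times the wildtype mean and KO replicate 1 at 0.901 times that mean. The log2 difference of Tlr5 was 0.55 (SE 0.369, edgeR adjusted p-value 0.599), and with KO replicate 1 as the only KO sample it was -0.07.

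Among the endosomal receptors, Tlr13 (ENSMUSG00000033777, chromosome X, 106143204 to 106160493, plus strand) recognises bacterial ribosomal RNA. It was at 13.9, 23.04 and 23.4 FPKM in the KO libraries and at 12.6, 11.9 and 14.5 FPKM in the wildtype libraries. KO replicate 1 was inside the wildtype range, so the groups overlapped. Tlr13 averaged 18.6 ± 6.57 FPKM (SD, n = 2) over the KO samples, against 12.99 ± 1.36 FPKM (SD, n = 3) over wildtype, for a log2 difference of 0.52 (SE 0.196, unadjusted p-value 0.0317 and edgeR adjusted p-value 0.308). It was 0.80 without KO replicate 1 (adjusted p-value 0.0515 by edgeR) and 0.18 with KO replicate 1 as the only KO sample.

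Tlr7 and Tlr8, which bind single-stranded RNA, are neighbours on chromosome X with 40599 bases between them. Tlr8 (ENSMUSG00000040522, 167242696 to 167264329) was at 4.18, 7.34 and 7.01 FPKM in the KO libraries and at 3.92, 3.78 and 4.28 FPKM in the wildtype libraries, for a log2 difference of 0.51 (SE 0.218, unadjusted p-value 0.0504 and edgeR adjusted p-value 0.367). Tlr7 (ENSMUSG00000044583, 167304929 to 167330558) was at 5.37, 6.68 and 7.62 FPKM in the KO libraries and at 6.13, 4.85 and 6.30 FPKM in the wildtype libraries, for a log2 difference of 0.14 (SE 0.170, edgeR adjusted p-value 0.819). For both, KO replicate 1 was inside the wildtype range and KO replicates 2 and 3 were above it, by a wider margin for Tlr8. The ratio of Tlr8 to Tlr7 ranged from 0.779 to 1.10 in KO, against 0.640 to 0.780 in wildtype, and the ranges overlapped.

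Tlr9 (ENSMUSG00000045322, chromosome 9, 106222598 to 106226883), the receptor of unmethylated CpG DNA, had KO libraries on both sides of the wildtype range. It was at 1.39 FPKM in KO replicate 1, below the wildtype values of 2.43, 1.77 and 2.37 FPKM, while KO replicates 2 and 3 lay above them at 2.73 and 2.95 FPKM. The log2 difference of Tlr9 was -0.04 (SE 0.307, edgeR adjusted p-value 0.983), and it was 0.35 without KO replicate 1 and -0.56 with it as the only KO sample. Tlr3 (ENSMUSG00000031639, chromosome 8, 45395665 to 45411080), the receptor of double-stranded RNA, was the one receptor below wildtype in every KO library. It was at 0.705, 0.429 and 0.643 FPKM in the KO libraries and at 1.04, 0.723 and 0.822 FPKM in the wildtype libraries. KO replicate 1 and wildtype replicate 2 were close, at 217 and 229 counts. Of all genes tested, 16% had KO samples below all wildtype samples. The log2 difference of Tlr3 was -0.44 (SE 0.285, edgeR adjusted p-value 0.589). The antisense gene Gm45542 overlaps Tlr3, and it had at most 3 counts in any library.

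**Figure D2:**
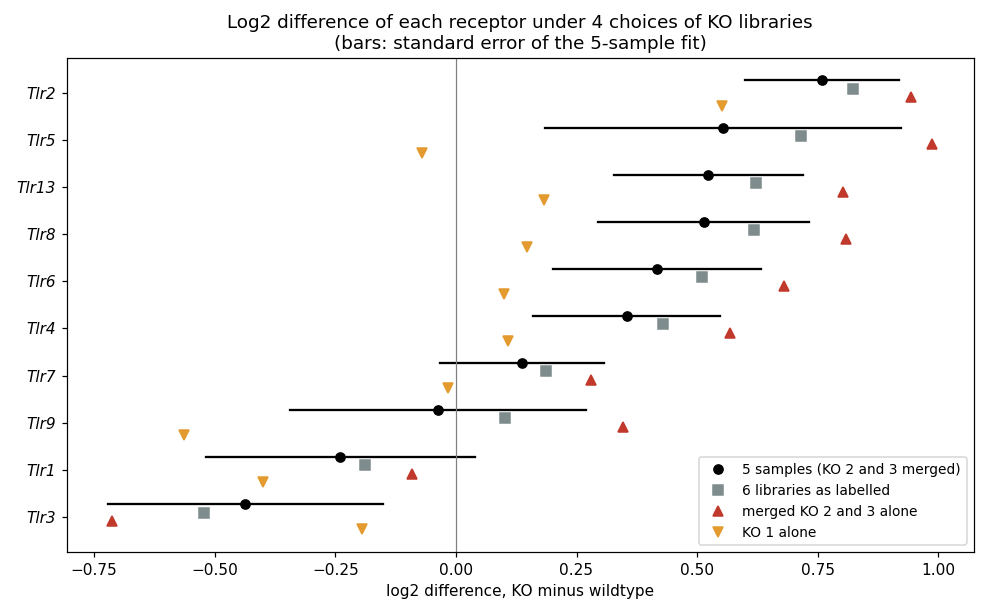
Log2 difference (KO minus wildtype, horizontal axis) of each receptor with KO replicates 2 and 3 merged (black, bars are the standard error), with the 6 libraries as labelled (grey), with the merged KO sample alone (red) and with KO replicate 1 alone (orange). Tlr2 keeps a difference of 0.55 or more in each of the 4 choices, whereas Tlr9 moves from -0.56 to 0.35.

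The sequence before the start of the gene is shown for the receptors with the smallest p-values (Tlr2, Tlr13 and Tlr8) and for Tlr9, which had a log2 difference near 0. The windows hold up to 250 bases before the RefSeq start (GRCm38.p6), without bases inside the gene as the deposited table places it. RefSeq starts were matched for 8 of the 10 receptors, all but Tlr4 and Tlr7. The letters GAGGAA (the core bound by the myeloid factor PU.1 and other ETS factors), GGG, any 2 bases and TTTCC (an NF-κB site), and GAAA, any 2 bases and GAAA (an interferon response element) were searched on both strands. The wider kB consensus of NF-κB was added after the sequences were seen. Capitals mark the kB consensus in Tlr2, and GAGGAA or its reverse complement in the others. The windows are chr3:83841768-83841858 on the minus strand for Tlr2, chrX:106143025-106143203 on the plus strand for Tlr13, chrX:167264330-167264579 on the minus strand for Tlr8 and chr9:106222348-106222597 on the plus strand for Tlr9.
Tlr2: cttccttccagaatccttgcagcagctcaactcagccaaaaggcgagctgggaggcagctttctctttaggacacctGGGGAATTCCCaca
Tlr13: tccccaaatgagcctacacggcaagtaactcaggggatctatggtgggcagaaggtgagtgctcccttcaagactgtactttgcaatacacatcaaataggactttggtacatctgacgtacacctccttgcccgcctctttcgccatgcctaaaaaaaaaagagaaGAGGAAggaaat
Tlr8: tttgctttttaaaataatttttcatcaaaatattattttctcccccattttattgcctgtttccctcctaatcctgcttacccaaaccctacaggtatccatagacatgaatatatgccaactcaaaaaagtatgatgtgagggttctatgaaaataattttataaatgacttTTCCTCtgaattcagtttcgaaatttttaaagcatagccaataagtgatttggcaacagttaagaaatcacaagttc
Tlr9: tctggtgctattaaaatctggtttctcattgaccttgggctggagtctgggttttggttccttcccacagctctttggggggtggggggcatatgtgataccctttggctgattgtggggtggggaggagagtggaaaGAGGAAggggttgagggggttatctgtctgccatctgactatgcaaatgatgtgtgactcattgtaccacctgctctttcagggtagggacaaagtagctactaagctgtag

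GAGGAA was found at 1 position each in the Tlr13, Tlr8 and Tlr9 windows, and not in the 91 bases of the Tlr2 window. Among all 32851 windows of genes, 17.1% held it in the 179 bases compared for Tlr13, 23.3% in the 250 bases compared for Tlr8 and Tlr9, and 9.22% in the 91 bases compared for Tlr2. The 179 and 91 bases were those farthest from the RefSeq start in every gene, not those next to it. For Tlr13 and Tlr2 they end at the deposited gene, which begins before the RefSeq start. These narrow NF-κB letters and the interferon letters were found in none of the 4 windows, and all genes held them in 1.41% and 2.98% of windows of 250 bases. The wider kB consensus was found in the Tlr2 window, as 2 overlapping matches near the end next to the gene, and in none of the other 3. Among all genes, 2.26% of windows of 91 bases and 7.25% of windows of 250 bases held it. Of the windows not printed, that of Tlr1 held GAGGAA at 1 position, those of Tlr5 and Tlr6 held none of these letters, and no base outside the gene was left for Tlr3.

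The genes closest to Tlr2 and Tlr13 over the 5 samples, by Euclidean distance of log2(FPKM + 1) centred on the mean of each gene, were then listed. They resemble these receptors because they were chosen for it, which is not a separate result. For Tlr2 they were Tmem181c-ps (distance 0.0777), Slc31a2 (0.0870), a copper transporter gene, and Ero1l (0.132), an oxidase of the endoplasmic reticulum. Slc31a2 was at 21.2, 29.2 and 28.0 FPKM in the KO libraries and at 16.4, 14.3 and 13.3 FPKM in the wildtype libraries, with KO replicate 1 between the other KO libraries and wildtype, as for Tlr2. For Tlr13 they were Numb (0.0612), an adaptor of Notch signaling, Pik3cd (0.0713), a leukocyte phosphoinositide 3-kinase subunit, and Dhx38 (0.0742), a splicing helicase. Pik3cd was at 23.3, 39.4 and 39.3 FPKM in the KO libraries and at 22.1, 20.4 and 23.8 FPKM in the wildtype libraries.

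To place the receptors in their pathway, 72 further genes were grouped by role, 65 of which were tested. None passed the adjusted threshold by edgeR. At an unadjusted p-value under 0.05, 9 were higher and 2 were lower in KO, beside the 7.63% and 6.07% of all genes given above, and the adjusted threshold was passed by 5 with the 6 libraries as labelled (3.71% of all genes), by 6 with DESeq2 (5.72%) and by 6 without KO replicate 1 (2.29%). The median log2 difference was 0.12 over these genes and -0.02 over all genes tested.

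**Figure D3:**
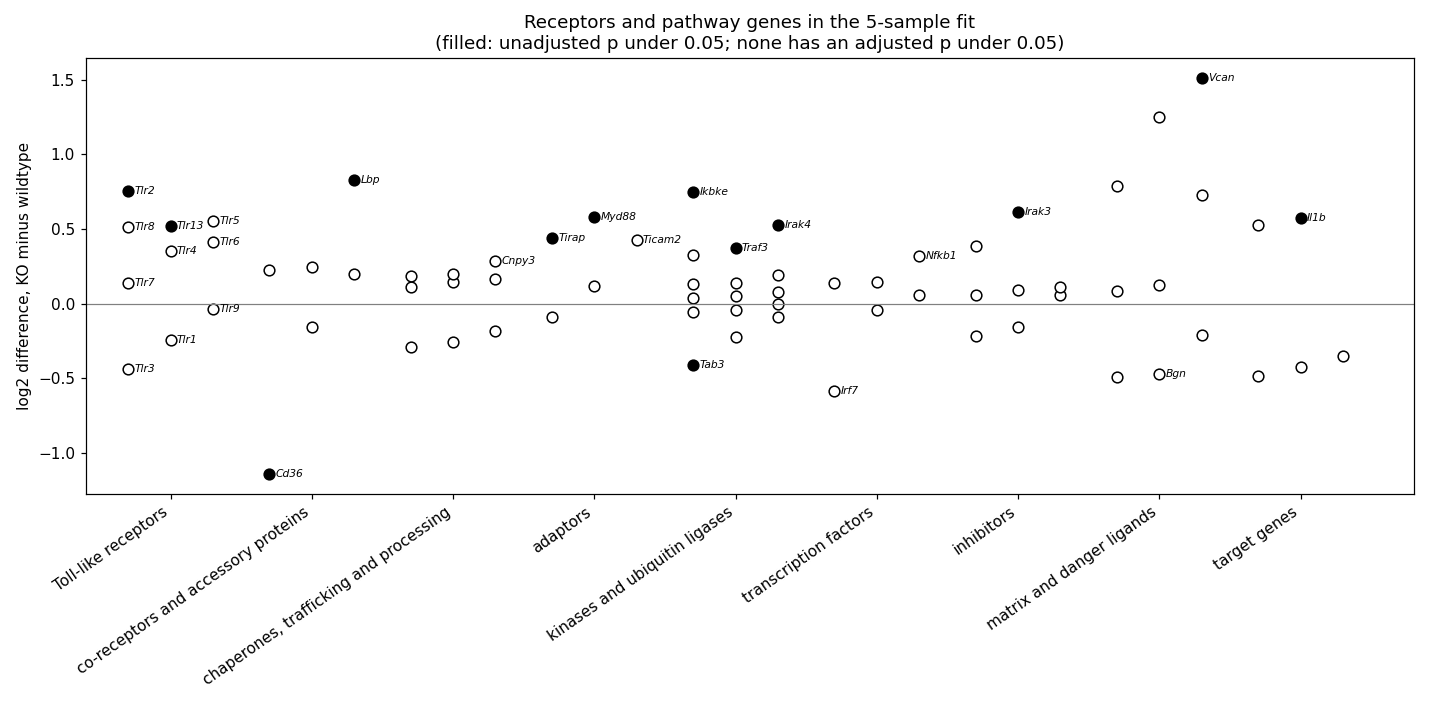
Log2 difference (KO minus wildtype, vertical axis) of the 10 receptors and of tested pathway genes grouped by role, from the comparison of 2 KO and 3 wildtype samples; filled points have an unadjusted p-value under 0.05. Most points lie within 0.5 of 0, Vcan is the highest (1.51) and Cd36 the lowest (-1.14).

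Of 6 co-receptors and accessory proteins, Lbp was higher and Cd36 lower at an unadjusted p-value under 0.05. Lbp, which delivers lipopolysaccharide to Cd14, was at 14.9, 20.2 and 20.0 FPKM in the KO libraries and at 9.31, 9.88 and 10.5 FPKM in the wildtype libraries, for a log2 difference of 0.83 (SE 0.144, edgeR adjusted p-value 0.166). The groups did not overlap, and as for Tlr2, KO replicate 1 lay between the other KO libraries and wildtype. Cd36, a scavenger receptor that assists Tlr2 with Tlr6 and is also abundant in fat and endothelium, was at 19.4, 12.1 and 13.02 FPKM in KO and at 36.3, 29.4 and 42.7 FPKM in wildtype, for a log2 difference of -1.14 (SE 0.247, edgeR adjusted p-value 0.166). Its groups did not overlap either. Markers of fat were also lower in KO at an unadjusted p-value under 0.05, for log2 differences of -1.60 for Adipoq, -1.36 for Fabp4 and -4.42 for Plin1, and of the 5 endothelial markers, all lower, Emcn was past it (-0.65). KO replicate 1 and the merged KO sample were at 0.416 and 0.226 times the wildtype mean for Adipoq and at 0.548 and 0.204 times for Fabp4. Plin1 was at 0.0813 and 0.00637 times, and Cd36 at 0.538 and 0.348 times. The part of fat and endothelium in the Cd36 value was not tested. For the partners of Tlr4, Cd14 had a log2 difference of 0.24 and Ly96 of 0.23, with adjusted p-values of 0.835 and 0.811 by edgeR. The related pair Cd180 and Ly86, a receptor of B cells and its partner, had log2 differences of -0.16 and 0.20.

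Of 9 genes for folding, transport and cleavage of the receptors, 0 had an unadjusted p-value under 0.05. Unc93b1, which carries the nucleic acid receptors to endosomes, was at 51.9, 56.6 and 55.2 FPKM in the KO libraries and at 48.9, 47.2 and 49.5 FPKM in the wildtype libraries, for a log2 difference of 0.17 (SE 0.115). These groups did not overlap, but the difference was small. The chaperone gene Cnpy3 had a log2 difference of 0.29, and the protease genes Ctsl and Lgmn of -0.29 and -0.25.

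Among 5 tested adaptors, Myd88 and Tirap were higher at an unadjusted p-value under 0.05. Myd88 was at 26.1, 42.4 and 40.8 FPKM in the KO libraries and at 23.6, 22.0 and 22.7 FPKM in the wildtype libraries, for a log2 difference of 0.58 (SE 0.173, edgeR adjusted p-value 0.222). Tirap, which links Myd88 to Tlr2 and Tlr4, was at 5.68, 8.15 and 8.52 FPKM in KO and at 5.39, 4.98 and 5.20 FPKM in wildtype, for a log2 difference of 0.44 (SE 0.164, edgeR adjusted p-value 0.302). Both lay above wildtype in each KO library, by little in KO replicate 1. The adaptors of the Tlr3 and Tlr4 branch that leads to interferon had log2 differences of 0.12 for Ticam1 and 0.43 for Ticam2, with KO replicate 1 below the wildtype range in both.

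Of 16 kinases and ubiquitin ligases, 3 were higher and 1 was lower at an unadjusted p-value under 0.05. Ikbke, a kinase of the interferon branch, was at 5.66, 8.15 and 7.81 FPKM in the KO libraries and at 4.25, 3.90 and 4.12 FPKM in the wildtype libraries, for a log2 difference of 0.75 (SE 0.146, edgeR adjusted p-value 0.166). Irak4, the first kinase recruited by Myd88, had a log2 difference of 0.53 (SE 0.172), and Traf3 of 0.37. Tab3, an adaptor of the kinase Map3k7, was lower, at a log2 difference of -0.41 (SE 0.156). The remaining 12, among them Irak1, Traf6 and Map3k7, had adjusted p-values of at least 0.373 by edgeR.

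Of 6 transcription factors, 0 had an unadjusted p-value under 0.05. The smallest p-values were those of Nfkb1 (log2 difference 0.32), Irf7 (-0.59) and Irf5 (0.14). Irf7, itself an interferon-induced gene, was at 13.9, 9.27 and 8.78 FPKM in the KO libraries and at 17.6, 10.6 and 24.8 FPKM in the wildtype libraries, and the groups overlapped. Of 8 inhibitors, Irak3, a kinase-like protein that blocks Myd88 signaling in monocytes and macrophages, was higher at an unadjusted p-value under 0.05. It was at 10.3, 13.5 and 15.0 FPKM in KO and at 8.38, 7.56 and 8.35 FPKM in wildtype, for a log2 difference of 0.61 (SE 0.147, edgeR adjusted p-value 0.175). Sigirr had a log2 difference of -0.21 and Tnfaip3 of -0.16.

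Among 9 matrix and danger molecules that act as ligands, Vcan was higher at an unadjusted p-value under 0.05. Vcan encodes versican, a matrix proteoglycan that monocytes also make. It was at 3.46, 8.58 and 8.33 FPKM in the KO libraries and at 2.45, 2.12 and 1.68 FPKM in the wildtype libraries, for a log2 difference of 1.51 (SE 0.325, edgeR adjusted p-value 0.166). The matrix ligand Bgn had a log2 difference of -0.47 and the neutrophil protein gene S100a9 of 0.79, with adjusted p-values of 0.533 and 0.501. Among 5 tested target genes, Il1b was higher at an unadjusted p-value under 0.05 (log2 difference 0.58, SE 0.163, edgeR adjusted p-value 0.203). Tnf (0.53), Cxcl10 (-0.48), Ccl4 (-0.42) and Ccl3 (-0.35) were not past it. The median log2 difference of the 5 target genes was -0.35, with 2 higher and 3 lower. Il6, Cxcl2, Nos2, Ptgs2 and Il12b were too low to test.

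Markers of cells that carry these receptors were set beside them, as the median over each list of the level relative to the wildtype mean. For the 10 receptors this was 0.973, 1.64 and 1.52 in the KO libraries, against 0.871 to 1.07 in wildtype libraries. For 10 neutrophil markers it was 1.71 in each of the 3 KO libraries and 0.897 to 1.12 in wildtype libraries, and 6 of the 10 were higher at an unadjusted p-value under 0.05. The median of the neutrophil list was thus as high in KO replicate 1 as in KO replicates 2 and 3, unlike that of the receptors. It averages over markers that differed in both directions between these libraries. The summed level of the neutrophil list was 47898 to 59761 FPKM in KO and 25526 to 41689 FPKM in wildtype.

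Single markers differed in this respect. S100a8, S100a9, Camp and Ly6g were highest in KO replicate 1, and Ngp was similar in the KO libraries. Mmp8, Ltf, Csf3r, Cxcr2 and Mmp9 were lower in KO replicate 1 than in KO replicates 2 and 3, as most receptors were. For Mmp9, KO replicate 1 was inside the wildtype range, at 201 FPKM against 169 to 253 FPKM. S100a8 was at 16321, 11795 and 12094 FPKM in the KO libraries and at 6440, 11699 and 7744 FPKM in the wildtype libraries. For the neutrophil markers Csf3r, Cxcr2, Mmp8 and Ltf, as for Tlr2, KO replicate 1 lay between the other KO libraries and wildtype. Mmp8 was at 256, 402 and 400 FPKM in KO and at 151, 179 and 177 FPKM in wildtype. Ltf was at 1090, 1529 and 1514 FPKM in KO and at 668, 666 and 664 FPKM in wildtype. Csf3r was at 117, 188 and 188 FPKM in KO and at 88.2, 85.0 and 88.6 FPKM in wildtype, and Cxcr2 was at 59.5, 110 and 118 FPKM in KO and at 43.5, 44.9 and 45.3 FPKM in wildtype.

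For 10 monocyte and macrophage markers the median relative level was 0.930, 0.987 and 0.965 in KO and 0.878 to 1.07 in wildtype, and their summed level was 592 to 597 FPKM in KO and 509 to 598 FPKM in wildtype. The sum and the median join markers that differed in opposite directions, such as Ly6c2 (higher) and C1qa, C1qb and C1qc (lower). Within this list, 5 of the 10 were higher in KO, and 2 were higher and 1 was lower at an unadjusted p-value under 0.05. Ccr2, a receptor of inflammatory monocytes, was at 29.2, 62.4 and 63.9 FPKM in the KO libraries and at 28.2, 30.1 and 27.7 FPKM in the wildtype libraries, with KO replicate 1 inside the wildtype range, like Tlr13. Ly6c2, another marker of these monocytes, was instead above wildtype in every KO library, at 218, 248 and 244 FPKM against 125, 144 and 136 FPKM, for a log2 difference of 0.79. The macrophage mannose receptor gene Mrc1 was the lower one, at 7.61, 8.08 and 7.74 FPKM in KO and 14.04, 10.3 and 15.4 FPKM in wildtype. Adgre1, a marker of mature macrophages, had a log2 difference of 0.003. The complement genes C1qa, C1qb and C1qc of this list had log2 differences of -0.36, -0.31 and -0.39. C1qa was at 93.1, 58.4 and 58.2 FPKM in KO and at 98.1, 85.1 and 115 FPKM in wildtype, with KO replicate 1 inside the wildtype range.

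All 10 B cell markers were lower in KO at an unadjusted p-value under 0.05, with a median relative level of 0.446, 0.322 and 0.304 in KO and 0.913 to 1.14 in wildtype. For plasmacytoid dendritic cells, which use Tlr7 and Tlr9, it was 1.002, 0.693 and 0.645 in KO and 0.828 to 1.16 in wildtype, and for the dendritic cell list 0.842, 0.924 and 0.834 in KO and 0.888 to 1.10 in wildtype. No B cell, neutrophil or monocyte and macrophage marker was listed at 0 in any library. The summed level of the B cell list was 88.9 to 141 FPKM in KO and 283 to 317 FPKM in wildtype. Erythroid markers had a median relative level of 0.702, 0.347 and 0.349 in KO and 0.839 to 1.24 in wildtype. Like the receptors they set KO replicates 2 and 3 apart from KO replicate 1, but with KO replicates 2 and 3 lower. The chondrocyte list did so too, at 1.34, 0.663 and 0.649 in KO and 0.989 to 1.12 in wildtype, with 0 of its 8 tested genes past an unadjusted p-value of 0.05. The part of these cell types in the values of the receptors was not tested.

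**Figure D4:**
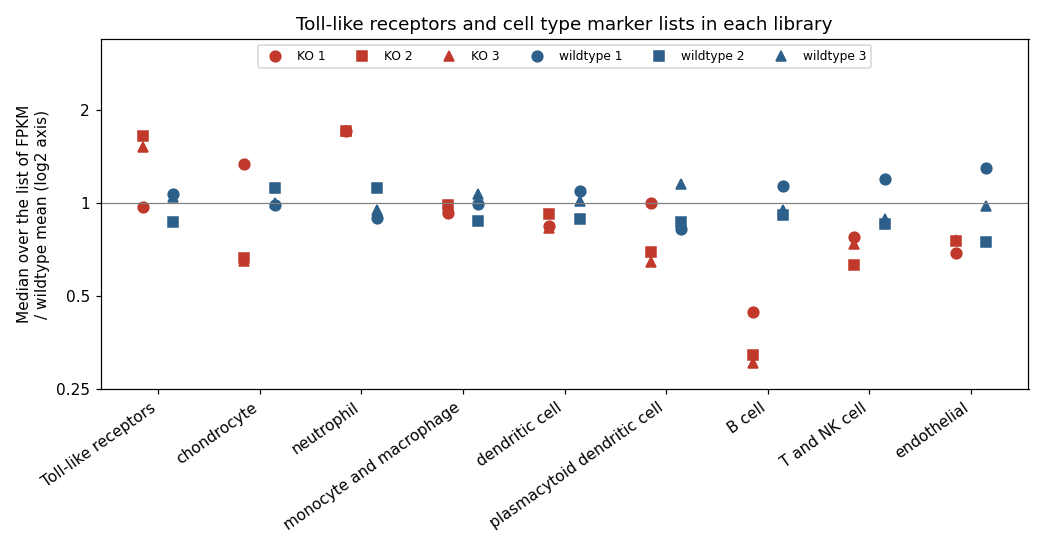
Median over each list of the level (FPKM) divided by the wildtype mean, on a log2 axis, for the 10 receptors and 8 cell type marker lists in the 3 KO libraries (red) and the 3 wildtype libraries (blue). The receptors are at 0.973 in KO replicate 1 and at 1.64 and 1.52 in KO replicates 2 and 3. The neutrophil list is at 1.71 in all 3, as a median over markers that are higher or lower in KO replicate 1.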

How the data were processed

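Articular cartilage RNA of KO and wildtype mice was sequenced as strand-specific, oligo(dT)-selected libraries with molecular identifiers (paired reads of 150 bp). The knocked-out gene is not reported here. The submitters' processing notes name cutadapt 1.9, HISAT2 2.0.4, UMI-tools, StringTie 1.3.4d, DESeq2 and edgeR. Their roles, the annotation, and the use of strand and identifiers in counting are not given in the sources used here. The authors deposited, for each gene and library, an FPKM value, scaled within the library, and an estimated count. The counts were whole numbers, and 0 per-sample columns were left unused. Positions follow GRCm38, and 8 of the 10 receptors had the same position in GENCODE M21.

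Groups and replicate numbers came from the titles. The study describes its samples as independent but does not say whether each library is 1 animal, so p-values measure the spread between these samples, which may be technical. Counts of KO replicates 2 and 3 were averaged and rounded. Genes averaging 0.5 FPKM or more were tested with edgeR (4.0.16, R 4.3.3), quasi-likelihood, TMM scaling and Benjamini-Hochberg adjustment. Each standard error is the log2 difference divided by the square root of F. Scripts were tested on simulated data. A count of 0 allows up to 0.0574 CPM in the shallowest library (floor of 3 counts, counting error alone). Deviations of same-numbered libraries from their group means had correlations of -0.21, -0.18 and 0.0014. As KO replicates 2 and 3 were so alike, these values cannot show whether replicates 2 and 3 were paired. The main comparison used no block, and a replicate block was run as an alternative. Alternatives were the 6 libraries as labelled, DESeq2 (1.42.0), limma (3.58.1) on log2(FPKM + 1) and log2(FPKM + 0.1), median-of-ratios scaling, no filter, a minimum of 5 FPKM, a replicate block and each sample left out. Receptors, gene lists and tests were chosen with earlier results of these data known. Named pathway genes were up to 3 of each list with the smallest unadjusted p-values, plus 9 set by name (Cd14, Ly96, Cd180, Ly86, Unc93b1, Myd88, Tirap, Ticam1 and Ticam2). Traf3, markers and others named by example were chosen after their values were seen.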

Additional observations from a re-analysis of the deposited data

How the results depend on the processing

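No receptor had an adjusted p-value under 0.05 on the 5 samples, and 1 (Tlr2) did with the 6 libraries as labelled and with DESeq2. The number ranged from 0 to 1 with each library left out, with Tlr2 passing without KO replicate 1. At an unadjusted p-value under 0.05 there were 2 receptors, against 5 with the 6 libraries as labelled, 4 with the replicate block, 3 with DESeq2, median-of-ratios scaling or no filter, 1 in each of the limma fits, 1 with KO replicate 1 as the only KO sample, and 1 to 6 with each library left out. The highest number was found without KO replicate 1 and the lowest without wildtype replicate 1 or 2. Pathway genes numbered 11 on the 5 samples, 17 with the 6 libraries as labelled, 7 in each limma fit and 8 to 17 with each library left out. The median log2 difference of the receptors ranged from 0.35 to 0.62 with each library left out and was 0.042 with KO replicate 1 as the only KO sample. Tlr9 changed sign with the 6 libraries as labelled (0.10), no filter (0.0087) and the replicate block (0.056), and ranged from -0.15 to 0.35 with each library left out. Tlr5 (-0.071) and Tlr7 (-0.016) changed sign with KO replicate 1 as the only KO sample. The other 7 receptors kept their sign in every alternative run. A minimum of 5 FPKM left 5 receptors. The cause of these changes was not tested. The replicate numbers are not stated to mark a shared litter or batch, and the block left 0 receptors past the adjusted threshold. The largest standard errors were those of Tlr5 (0.369) and Tlr9 (0.307).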
